A study of Homo sapiens with 17 samples.

Results

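L363 cells cultured for 48 hours with 1 nM rapamycin were compared with untreated L363 cells, the lower of the 2 rapamycin doses in the series. The comparison uses 6 of the 17 arrays, chosen by their titles: the 3 arrays of 1 nM rapamycin without MS275 and the 3 control arrays. L363 is an established cell line of multiple myeloma, a cancer of antibody-secreting plasma cells. All cells of the series are this line, so the groups share its genome, and by the labels they differ in drug. Whether they also differ in culture day or batch is not stated. The remaining 11 arrays hold 10 nM rapamycin, 0.5 uM MS275 (an inhibitor of class I histone deacetylases) and MS275 with either dose of rapamycin, all at 48 hours, and they enter the model to estimate the spread between arrays. Of 10 nM rapamycin with MS275 there are 2 arrays, since the submitters left out 1 after quality control. Whether the replicates came from separate cultures is not stated, so p-values measure the spread between these arrays, part of which may be technical. In bulk RNA, fewer cells of a type and less RNA per cell cannot be told apart.

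Rapamycin binds the small protein FKBP12 (gene FKBP1A), and this pair inhibits mTOR complex 1, a kinase complex that senses amino acids, growth factors and energy. The complex drives ribosome production and translation, raises the translation of the transcription factor ATF4, which induces amino acid transporters and amino acid synthesis, and activates the sterol and fatty acid regulators of the SREBP family. It also restrains autophagy and the lysosome regulator TFEB. The arrays measure RNA, so the activity of the kinase was not measured.

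Of 11 plasma cell marker genes, such as IRF4, XBP1 and SDC1 (syndecan-1, CD138), 11 lay above the median signal of all probe sets in control cells. The medians per array over these genes were 10.72 to 11.91 on the control arrays and 11.73 to 11.90 on the 1 nM arrays. Marker lists of T cells, myeloid cells, red cells, fibroblasts and epithelial cells had medians per array between 3.93 and 5.76 on the same 6 arrays. The mature B cell list had medians of 4.95 to 5.65. Of its 7 genes 4 lay above the median signal of all probe sets in control cells (CD79B 8.37, BACH2 7.37, CD22 7.05 and FCER2 5.36). The counts were 2 of 8 for T cells, 1 of 8 for myeloid cells and 3 of 4 for red cells. For fibroblasts and epithelial cells they were 4 of 7 and 3 of 6. The array medians over all probe sets ran from 5.09 to 5.14 on 5 of the 6 arrays and reached 5.36 on control replicate 1. The values of that array were also the narrowest, with an SD of 2.14 across probe sets against 2.33 to 2.37 on the other 5. It correlated best (r = 0.966) with replicate 1 of 1 nM rapamycin with MS275 and not with another control array. List medians are therefore also given without it, as are the values of some named genes that it moves. Genes given without such a value may move too. What sets this array apart was not tested. Over all 19775 genes the median log2 change was -0.12, and 65.1% of genes lay lower with 1 nM rapamycin. After centring each array on its median this shift was -0.02, and without control replicate 1 it was also -0.02.

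At 1 nM rapamycin 20 genes passed an adjusted p of 0.05 in limma, 4 of them higher and 16 lower. They are 0.101% of the 19775 genes tested (0.0202% higher and 0.0809% lower). Without adjustment 1592 genes (8.05%) had a p under 0.05, 583 higher (2.95%) and 1009 lower (5.1%). The arrays of the groups did not overlap in 2415 genes (12.2%), 827 higher (4.18%) and 1588 lower (8.03%). With the replicate number as a block, which compares same-numbered arrays, 112 genes passed (0.566%), 22 higher (0.111%) and 90 lower (0.455%), and all 20 were among them. The numbers may not pair the arrays of 10 nM rapamycin with MS275, which are also in this fit. The count rested on single arrays. Without control replicates 1, 2 and 3 it was 7, 73 and 7, and of these genes 4, 19 and 7 were among the 20. The 4 that passed without control replicate 1 were SLC7A5, NEU1, MKI67 and MYBL2 (limma adjusted p from 0.0224 to 0.0413), while the others of the 20 had adjusted p from 0.0547 to 0.0952 there. Without 1 nM replicates 1, 2 and 3 it was 0, 5 and 0 (1069, 1134 and 1037 genes at an unadjusted p under 0.05), so leaving out 1 nM replicate 1 or 3 ended every call below. It was 13 without MS275 replicate 3 or either array of 10 nM rapamycin with MS275. Below, a gene rose or fell only if it passed without the block, a value after ± is the SE of a log2 change unless called an SD, and n is 3 arrays a group.

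**Figure D1:**
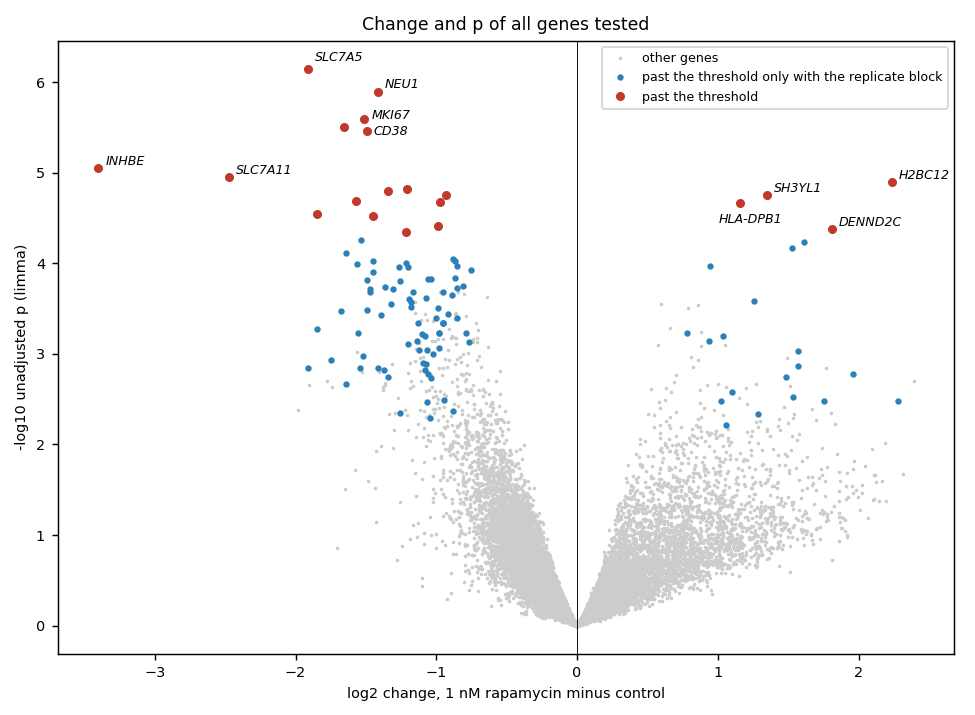
Log2 change (1 nM rapamycin minus control, x axis) against -log10 of the unadjusted limma p (y axis), with 1 point for each of 19775 genes. Red points are the 20 genes past an adjusted p of 0.05, blue points are those that passed only with the replicate block, and INHBE stands apart on the left at -3.40.

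The 4 largest falls among the 20 genes were of INHBE and of 3 amino acid transporter genes. SLC7A5, the light chain of the LAT1 transporter for large neutral amino acids such as leucine, had log2 signals of 11.78, 11.19 and 11.08 on the control arrays and 9.43, 9.49 and 9.39 on the 1 nM arrays. The 1 nM arrays lay close together and all under the lowest control array. SLC7A5 fell by 1.91 ± 0.23 (3.77-fold), with a limma adjusted p of 0.0127. Its partner SLC3A2, the heavy chain shared by LAT1 and the cystine transporter, read 10.31, 9.22 and 9.76 in control cells and 7.90, 8.19 and 7.66 at 1 nM. Control replicate 1 was the highest here, and the groups did not overlap. SLC3A2 fell by 1.85 ± 0.31 (limma adjusted p = 0.0348). Without control replicate 1 its change was -1.58 and the call was lost (adjusted p = 0.0762). The third member of these transporters, SLC7A11, is the light chain of the cystine and glutamate exchanger. Its signals were 8.68, 8.10 and 8.90 against 5.88, 5.94 and 6.44, again with no overlap. SLC7A11 fell by 2.47 ± 0.38 (5.56-fold, limma adjusted p = 0.0284), and its 3 probe sets all lay lower.

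Of 16 amino acid transporter genes measured, 3 fell and 0 rose, against the 0.0809% and 0.0202% of all genes. With the replicate block 5 passed, all lower, against 0.455% of all genes. The median of the 16 was -0.76, against -0.12 over all genes, and 13 lay lower (81.25%, against 65.1% of all genes). Without control replicate 1 the list's median was -0.80. The other 2 that passed with the block carry neutral amino acids. SLC1A4 differed by -1.47 ± 0.30 (limma adjusted p = 0.0825, and 0.00936 with the block) and the glutamine transporter SLC1A5 by -1.54 ± 0.39 (0.179, and 0.0387 with the block). The lowest changes without a call in either fit were those of SLC43A1, another carrier of large neutral amino acids (-1.31), and SLC38A1, a glutamine carrier (-0.93). SLC38A2 (0.05), SLC7A6 (0.15) and the lysosomal amino acid sensor SLC38A9 (0.20) had values above 0, and without control replicate 1 these were -0.08, 0.03 and -0.35.

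INHBE, which encodes the beta E subunit of activins and is induced through ATF4 during amino acid and secretory stress, showed the largest fall of all genes. Its log2 signals were 10.48, 9.48 and 9.77 on the control arrays and 6.52, 6.60 and 6.41 on the 1 nM arrays. The gap between the groups was far wider than the spread within either. INHBE fell by 3.40 ± 0.51 (10.6-fold, limma adjusted p = 0.0284), and without control replicate 1 its change was -3.11 and the call was lost (adjusted p = 0.0665). Of the 27 measured genes of the ATF4 pathway other than transporters INHBE alone passed, against 0.0809% of all genes lower. Of the 27 genes 24 lay lower (88.9%, against 65.1% of all genes), with a median of -0.55 (-0.47 without control replicate 1). With the block PHGDH, the first enzyme of serine synthesis, passed as well, against 0.455% of all genes lower. PHGDH read 11.41, 9.75 and 11.37 in control cells and 8.78, 8.81 and 9.21 at 1 nM (-1.91 ± 0.49, limma adjusted p = 0.179, and 0.048 with the block). Its change was -1.63 without control replicate 1. Control replicate 2 was far under the other control arrays, yet above every 1 nM array.

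Other genes of the ATF4 list had values of -1.98 ± 0.58 for CHAC1, a glutathione-degrading enzyme, -1.56 ± 0.38 for PCK2, the mitochondrial form of phosphoenolpyruvate carboxykinase, and -1.28 ± 0.36 for ASNS, asparagine synthetase, none past the threshold. PCK2 was at -1.17 without control replicate 1. SESN2, which senses leucine and restrains mTOR complex 1, read 10.13, 7.84 and 9.55 in control cells and 7.21, 7.29 and 7.31 at 1 nM (-1.90 ± 0.51, limma adjusted p = 0.221), and -1.42 without control replicate 1. DDIT4, another brake on the complex, read 11.01, 9.12 and 11.06 against 8.92, 9.57 and 7.76 (-1.65 ± 0.69, adjusted p = 0.561), with overlapping groups. In both genes control replicate 2 was the lowest control array by over 1 log2 unit. The RNA of ATF4 itself differed by -0.76 ± 0.37 (adjusted p = 0.624), with -1.23 to -0.48 over left-out arrays, and control replicate 2 at 11.15 lay within the range of the 1 nM arrays, from 11.13 to 11.49. Cytosolic aminoacyl-tRNA synthetases, which load amino acids onto tRNAs and include ATF4 targets, had a median of -0.46 (-0.53 without control replicate 1). Of the 17 genes 15 lay lower (88.2%, against 65.1% of all genes) and 0 passed. At an unadjusted p under 0.05 there were 0 higher and 4 lower, against 2.95% and 5.1% of all genes. With the block 1 passed, the glycyl-tRNA synthetase GARS1 (-1.39 ± 0.30, limma adjusted p = 0.103, and 0.0291 with the block).

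In the RefSeq promoter windows of GRCh38.p14, which run from 250 bases before to 50 after each gene's start, the amino acid response element that ATF4 binds was searched as TGATGNAAN on both strands. It was in the windows of 3 of 15 transporter genes (SLC3A2, SLC38A1 and SLC7A1), in 3 of 22 of the other ATF4 list genes (CHAC1, ASNS and FGF21) and in 3.67% of all 27305 windows. The stretch of SLC3A2 that holds the match is shown because this gene is the called transporter with one. It spans positions 21 to 50 after the start, chr11:62881719-62881748 on the plus strand, and the capitals mark the match, which is on the opposite strand.
SLC3A2: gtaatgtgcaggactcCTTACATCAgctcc
A match describes letters only and does not show that a factor is bound.

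Genes of cell division were the list with the lowest median. MKI67, the proliferation marker Ki-67, read 8.72, 8.77 and 8.60 on the control arrays and 7.24, 7.34 and 6.98 on the 1 nM arrays. The spread within each group was small beside the gap between them. MKI67 fell by 1.51 ± 0.20 (2.85-fold, limma adjusted p = 0.0137), and its 4 probe sets all lay lower. MYBL2, a transcription factor of the G1/S and G2/M programmes, read 9.92, 10.01 and 10.73 in control cells and 8.33, 8.73 and 8.65 at 1 nM. Control replicate 3 was the highest, and the groups did not overlap. MYBL2 fell by 1.65 ± 0.22 (3.14-fold, limma adjusted p = 0.0137). The condensin subunit NCAPH, which compacts mitotic chromosomes, read 8.998, 8.96 and 9.78 against 7.46, 7.88 and 7.68 and fell by 1.57 ± 0.25 (limma adjusted p = 0.0284).

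Of 48 mitotic genes measured these 3 fell and 0 rose, against 0.0809% and 0.0202% of all genes, and 13 were lower with the replicate block, against 0.455%. Their median was -0.91, and 44 lay lower (91.7%, against 65.1% of all genes). The medians of the 48 genes, each gene set against its own mean over the 6 arrays, were 0.06, 0.77 and 0.87 on control replicates 1, 2 and 3 and -0.74, -0.26 and -0.40 on the 1 nM arrays. Control replicate 1 thus lay well under the other control arrays, and without it the list's median change was -1.24. The genes that passed only with the block serve spindle assembly, chromosome segregation and mitotic entry. PLK1, a kinase of mitotic entry, read 9.16, 9.06 and 9.82 in control cells and 7.42, 7.96 and 7.75 at 1 nM (-1.64 ± 0.30, limma adjusted p = 0.0631, and 0.0269 with the block). CDC20, which activates the anaphase-promoting complex, read 9.52, 9.42 and 10.05 against 7.73, 8.30 and 8.27 (-1.57 ± 0.29, 0.0661 and 0.0269). The groups did not overlap in either gene.

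AURKA, a kinase of the spindle poles, read 9.15, 9.46 and 9.90 against 7.92, 8.24 and 8.43, so that in each group replicate 1 was the lowest and replicate 3 the highest. Its change was -1.31 ± 0.26 (limma adjusted p = 0.0825, and 0.0161 with the block). The other mitotic genes past the threshold only with the block were CDCA8, AURKB and BIRC5 (survivin) of the chromosomal passenger complex, the kinesin KIF2C, the cyclin CCNB2, the phosphatase CDC25C and the spindle midzone protein PRC1, with changes from -1.49 to -1.20. The highest of the 3 probe sets of CCNB2 had a value of 0.26. Members with values above 0 in this list were ECT2 (0.25), SMC2 (0.19), NEK2 (0.04) and the cyclin CCNA2 (0.02), and without control replicate 1 these were -0.79, -0.19, -0.80 and -1.05.

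Many mitotic promoters hold the element TTTGAA, the core of the CDE/CHR site through which the DREAM and MYB-MuvB complexes act, and a CCAAT box. Searched on both strands, TTTGAA was in 29 of the 42 mitotic genes with a promoter window and in 15.4% of all windows. CCAAT was in 30 of the 42 and in 35.7% of all windows. The 150 bases before the start of MKI67, which fell, and of PLK1 and CDC20, which passed with the block, are shown because all 3 hold both elements near the start. They are chr10:128126424-128126573 (minus strand), chr16:23678739-23678888 (plus strand) and chr1:43358831-43358980 (plus strand), and the capitals mark TTTGAA and CCAAT or its reverse ATTGG.
MKI67: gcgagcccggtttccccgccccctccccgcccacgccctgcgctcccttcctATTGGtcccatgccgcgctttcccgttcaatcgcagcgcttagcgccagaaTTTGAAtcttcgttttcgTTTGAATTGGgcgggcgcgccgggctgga
PLK1: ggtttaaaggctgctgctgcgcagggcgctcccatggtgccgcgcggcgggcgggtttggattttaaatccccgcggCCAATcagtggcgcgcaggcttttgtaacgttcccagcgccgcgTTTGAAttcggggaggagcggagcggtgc
CDC20: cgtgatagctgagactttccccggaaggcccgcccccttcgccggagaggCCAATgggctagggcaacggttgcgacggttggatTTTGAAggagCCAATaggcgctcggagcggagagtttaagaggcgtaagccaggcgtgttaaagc
In MKI67 the second TTTGAA and a reversed CCAAT overlap in the run TTTGAATTGG.

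DNA replication and the G1/S step followed with smaller changes. MCM4, a subunit of the replicative helicase, read 10.22, 10.25 and 10.76 on the control arrays and 9.01, 9.11 and 9.07 on the 1 nM arrays. The 1 nM arrays lay close together and under all control arrays. MCM4 fell by 1.35 ± 0.21 (2.54-fold, limma adjusted p = 0.0284), though 1 of its 5 probe sets had a value of 0.89. Of 47 genes of this list measured MCM4 alone passed, against 0.0809% of all genes lower. Of the 47 genes 39 lay lower (83.0%, against 65.1% of all genes), with a median of -0.51 (-0.77 without control replicate 1). With the block 5 passed, all lower, against 0.455% of all genes. They were MCM4, thymidine kinase TK1 (-1.52), E2F2 (-1.49), RRM2 (-1.26) and the helicase cofactor CDC45 (-1.18). RRM2, the regulated subunit of ribonucleotide reductase, read 10.73, 11.23 and 12.004 against 9.89, 9.91 and 10.40 (limma adjusted p = 0.31, and 0.0433 with the block), and 1 of its 2 probe sets had a value of 0.24. On this list control replicate 1 had a median deviation of -0.13, against 0.54 and 0.65 on control replicates 2 and 3. The sliding clamp PCNA (0.74) and primase subunit PRIM2 (0.73) had the highest values, which without control replicate 1 were -0.38 and 0.11.

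CDK inhibitors, D cyclins and retinoblastoma family genes, a list that also names CDK4 and CDK6, held no call. Of 14 genes measured 0 passed (1 higher and 2 lower at an unadjusted p under 0.05, against 2.95% and 5.1% of all genes). Their median was -0.05 (-0.01 without control replicate 1). The 2 lower genes were CDKN1A and the D cyclin gene CCND3 (-0.85 ± 0.22, limma adjusted p = 0.205). CDKN1A, which encodes the CDK inhibitor p21, read 9.79, 8.09 and 9.26 in control cells and 7.26, 7.07 and 7.56 at 1 nM. Every 1 nM array was under every control array, but the control arrays spanned 1.7 log2 units. The change was -1.75 ± 0.43 (limma adjusted p = 0.164, and 0.0465 with the block), and -1.38 without control replicate 1. CDKN1B, which encodes p27, had a value of 0.86, and the pocket protein gene RB1 1.47 ± 0.79 (adjusted p = 0.633), and without control replicate 1 these were 0.34 and 0.38.

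**Figure D2:**
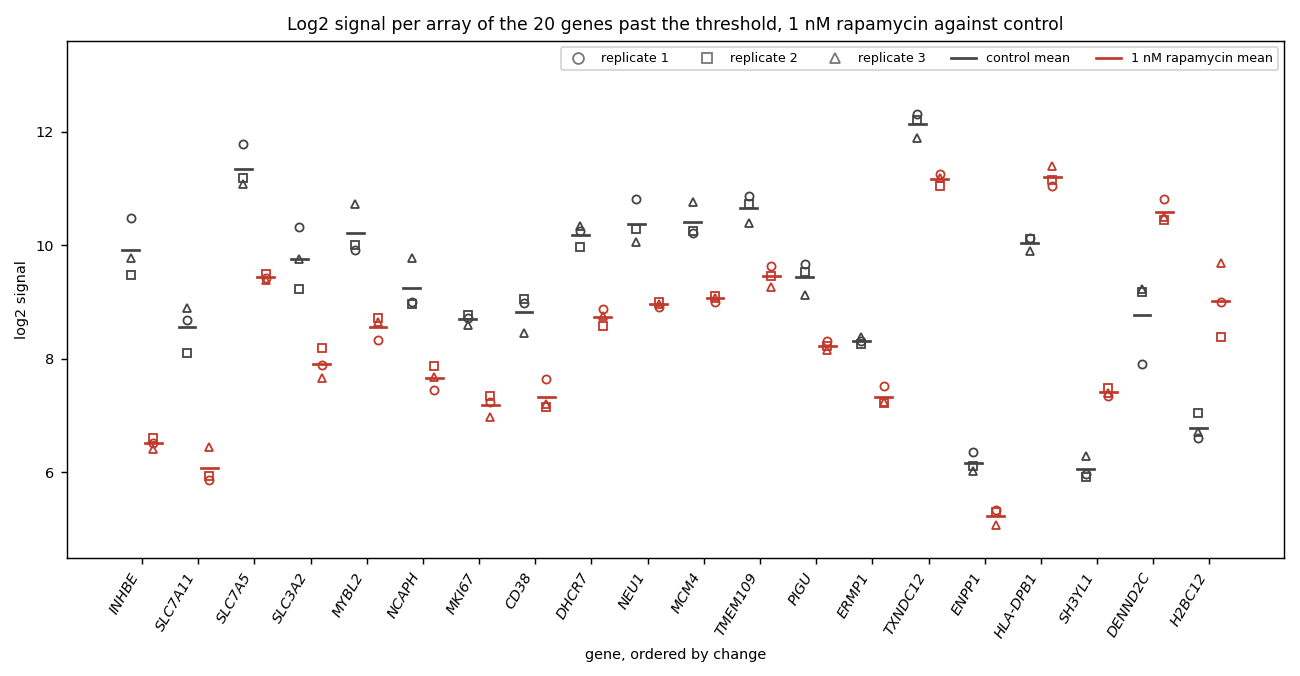
Log2 signal (y axis) on each of the 6 arrays for the 20 genes past the threshold, ordered by change (x axis), with control in grey, 1 nM rapamycin in red, the replicate number as the symbol and the group mean as a bar. No gene has overlapping groups. The widest gap is that of INHBE, whose control arrays lie at 9.48 or above and whose 1 nM arrays lie at 6.60 or below.

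Among lipid genes 1 fell, DHCR7, which catalyses the last step of cholesterol synthesis. DHCR7 read 10.25, 9.97 and 10.34 on the control arrays and 8.88, 8.57 and 8.76 on the 1 nM arrays, with little spread in either group. It fell by 1.45 ± 0.24 (2.73-fold, limma adjusted p = 0.0348), and both of its probe sets lay lower. Of 20 genes of sterol synthesis and uptake measured, 18 lay lower (90%, against 65.1% of all genes), with a median of -0.50 (-0.60 without control replicate 1). With the block 3 passed, all lower, against 0.455% of all genes. These were DHCR7, INSIG1, which holds the SREBP proteins in the endoplasmic reticulum and is itself their target, and FDPS, farnesyl diphosphate synthase. INSIG1 read 9.80, 9.80 and 10.22 against 8.24, 7.42 and 8.62 (-1.85 ± 0.42, limma adjusted p = 0.121, and 0.0269 with the block), and FDPS differed by -1.003 ± 0.22 (0.106 and 0.0451). HMGCS1 (0.25) and MSMO1 (0.52) were the 2 members with values above 0, and without control replicate 1 these were 0.07 and -0.47.

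Fatty acid synthesis genes had a median of -0.45 (-0.49 without control replicate 1), with 8 of 12 lower (66.7%, against 65.1% of all genes). Of the 12 genes 0 passed (0 higher and 6 lower at an unadjusted p under 0.05, against 2.95% and 5.1% of all genes). With the block 2 passed, both lower, against 0.455% of all genes. SREBF1, which encodes the fatty acid regulator SREBP-1, read 11.79, 11.55 and 11.58 in control cells and 10.12, 10.58 and 9.30 at 1 nM. The 1 nM arrays spread by over 1 log2 unit but all lay under the control arrays (-1.64 ± 0.44, limma adjusted p = 0.219, and 0.0433 with the block). The stearoyl-CoA desaturase gene SCD differed by -1.18 ± 0.25 (0.096 and 0.0433), and the citrate lyase ACLY had the highest value of the list, 1.23, and 0.31 without control replicate 1. The receptor for high density lipoprotein, SCARB1, read 11.41, 11.20 and 10.79 against 9.66, 9.86 and 9.21 (-1.55 ± 0.35, adjusted p = 0.125, and 0.0217 with the block). The sterol element TCACNCCAC was in the window of 1 of 18 sterol genes, SREBF2, and in 1.15% of all windows.

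Sugar and nucleotide metabolism held no call. The 26 glycolysis and hypoxia genes had a median of -0.38 (-0.44 without control replicate 1). Among them 18 lay lower (69.2%, against 65.1% of all genes), and 0 passed. At an unadjusted p under 0.05 there were 0 higher and 6 lower, against 2.95% and 5.1% of all genes. With the block the platelet-type phosphofructokinase PFKP passed (-0.95 ± 0.21, limma adjusted p = 0.108, and 0.045 with the block). Of 26 pentose phosphate, nucleotide and folate enzymes, with a median of -0.19 (-0.36 without control replicate 1), the transketolase gene TKT passed with the block alone (-0.98 ± 0.21, adjusted p = 0.096 and 0.0465). TKT read 11.59, 11.65 and 11.92 in control cells and 10.75, 10.61 and 10.84 at 1 nM, with no overlap.

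NEU1, the lysosomal sialidase, read 10.81, 10.28 and 10.06 on the control arrays and 8.92, 9.005 and 8.97 on the 1 nM arrays. Control replicate 1 was the highest and the 1 nM arrays lay close together, with no overlap. NEU1 fell by 1.42 ± 0.18 (2.67-fold, limma adjusted p = 0.0127), and by 1.20 without control replicate 1. It was the single call among 25 lysosome genes, against 0.0809% of all genes lower. The list's median was -0.26 (-0.16 without control replicate 1). Of the 25 genes 16 lay lower (64%, against 65.1% of all genes). The lysosomal galactosidase GLA passed with the block (-1.07 ± 0.31, limma adjusted p = 0.269 and 0.0461). The lysosome regulator TFEB had a value of 0.05 ± 0.30, which took a value below 0 in 5 alternatives, among them -0.25 with the mean of its probe sets and -0.19 without control replicate 2. The CLEAR element TCACGTGA, which contains the E-box CACGTG, was in 5 of 16 lysosome windows (LAMP1, CTSA, GAA, MCOLN1 and ATP6V0D1) and in 1.04% of all windows, and none of these 5 genes passed. Autophagy genes had a median of 0.03 (-0.02 without control replicate 1), with 13 of 23 higher, against 6911 of all 19775 genes. Of these 23 genes 0 passed (5 higher and 1 lower at an unadjusted p under 0.05, against 2.95% and 5.1% of all genes). Among them NBR1, a receptor for ubiquitin-tagged cargo, read 6.76, 8.20 and 8.69 against 9.29, 9.24 and 9.43 (1.44 ± 0.44, adjusted p = 0.326), and without control replicate 1 its change was 0.87. The lowest of its 4 probe sets had a value of -0.08.

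The RNAs of the drug's own pathway held no call. Of 19 genes of the mTOR complexes and their direct effectors 0 passed in limma and 0 had an unadjusted p under 0.05, against 8.05% of all genes. Their median was -0.04 (-0.12 without control replicate 1). MTOR differed by -0.14 ± 0.18, its partner in complex 1 RPTOR by -0.19 ± 0.16, and FKBP1A by 0.42 ± 0.34 (0.09 without control replicate 1). The translation repressor EIF4EBP1 read 10.99, 8.70 and 9.40 on the control arrays and 8.67, 8.07 and 9.34 on the 1 nM arrays (-1.004 ± 0.64), and -0.36 without control replicate 1. For RICTOR, the partner of mTOR in complex 2, control replicate 1 at 5.76 lay far under the other control arrays at 8.89 and 8.26 (1.59 ± 0.86, and 0.65 without it). The S6 kinase gene RPS6KB1 had a value of 0.39 ± 0.47 with all arrays and -0.25 without control replicate 1, so its direction rested on that array. Among 22 upstream regulators of complex 1, with a median of 0.18 (0.01 without control replicate 1), 0 passed. At an unadjusted p under 0.05 there were 0 higher and 2 lower, against 2.95% and 5.1% of all genes. Among 18 genes of insulin signalling feedback and FOXO targets, with a median of 0.03 (-0.04 without control replicate 1), 0 passed. Here 1 was higher and 1 lower at an unadjusted p under 0.05, against the same shares. IRS2, an adaptor of the insulin receptor, differed by -0.36 ± 0.17.

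The title of the study names degradation of MYC protein, which arrays do not measure. MYC RNA read 11.95, 11.66 and 12.41 in control cells and 12.41, 11.98 and 12.44 at 1 nM, with overlapping groups and a change of 0.27 ± 0.27 (limma adjusted p = 0.716). The 12 genes of MYC and the MAX network had a median of 0.27 (0.17 without control replicate 1), and 0 passed. At an unadjusted p under 0.05 there were 2 higher and 0 lower, against 2.95% and 5.1% of all genes. The 2 were MNT, a MAX partner that represses (0.62 ± 0.18), and MGA (0.39 ± 0.17), at 0.47 and 0.22 without control replicate 1. The lower of the 2 probe sets of MNT had a value of -0.19.

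The mRNAs of the translation machinery, which carry a 5′ terminal oligopyrimidine tract (TOP) and whose translation mTOR complex 1 controls, had values on one side of 0. All 52 of the measured cytosolic ribosomal protein genes (of 78 listed) lay higher, from 0.10 for RPL3 to 1.57 for RPS25, with a median of 0.42 (0.48 without control replicate 1). None passed in limma, with or without the block, while 25 had an unadjusted p under 0.05 (against 2.95% of all genes higher) and in 28 the groups did not overlap (against 4.18%). The medians of these genes against their own means were -0.10, 0.03 and -0.55 on control replicates 1, 2 and 3 and 0.22, 0.15 and 0.32 on the 1 nM arrays. Control replicate 3 was thus the array farthest from the rest. Between same-numbered arrays the list's median difference was 0.29, 0.15 and 0.85. RPL34, the member with the smallest p, read 12.69, 12.91 and 11.93 against 13.40, 13.39 and 13.38 (0.88 ± 0.20, adjusted p = 0.125). Quantile normalization lowered the list's median to 0.27, and centring on array medians raised it to 0.51. The 12 TOP mRNAs of translation factors also lay higher, with a median of 0.36 (0.29 without control replicate 1) and 0 past the threshold. At an unadjusted p under 0.05 there were 3 higher and 0 lower, against 2.95% and 5.1% of all genes. Ribosome biogenesis genes, such as those of nucleolar assembly factors, had a median of 0.00, with 12 of 23 higher, and a median of -0.18 without control replicate 1. In 4 of these 23 genes every 1 nM array lay under every control array, against 8.03% of all genes. In 0 every 1 nM array lay above, against 4.18%.

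MHC class II genes, which present antigen to T helper cells, were the list with the highest median. HLA-DPB1, a beta chain of class II, read 10.13, 10.11 and 9.89 on the control arrays and 11.04, 11.16 and 11.40 on the 1 nM arrays. The groups were tight and did not overlap. HLA-DPB1 rose by 1.16 ± 0.19 (2.23-fold, limma adjusted p = 0.0284), and both of its probe sets lay higher. Of 16 class II genes 1 rose, against 0.0202% of all genes, and 3 passed with the block, all higher, against 0.111%. A total of 14 lay higher, against 6911 of all 19775 genes. In 9 the groups did not overlap, all higher, against 4.18% of all genes. The median was 0.69, and 0.58 without control replicate 1. HLA-DQA1, an alpha chain, read 7.13, 9.29 and 9.25 against 10.49, 10.53 and 11.48 (2.28 ± 0.65, limma adjusted p = 0.265, and 0.0267 with the block), and 1.57 without control replicate 1, which was over 2 log2 units under the other control arrays. HLA-DRB1 read 11.85, 12.06 and 12.36 against 12.61, 12.98 and 13.03 (0.78 ± 0.18, 0.125 and 0.0333). HLA-DPA1 (1.80 ± 0.53) and CIITA, the master activator of class II genes (0.80 ± 0.46), did not pass in either fit and were at 1.14 and 0.33 without control replicate 1. Class II genes differ between people and share near-identical stretches, so probe sets may read more than 1 of them. Class I and interferon-stimulated genes had a median of -0.03 (0.03 without control replicate 1), with 0 of 23 past the threshold. At an unadjusted p under 0.05 there were 1 higher and 3 lower, against 2.95% and 5.1% of all genes.

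The Y box CTGATTGG, which contains a reversed CCAAT and is a conserved element of class II promoters, was in 4 of 13 class II windows (HLA-DRB1, HLA-DQB1, HLA-DMA and RFX5) and in 4.16% of all windows. The window of HLA-DRB1 before the start is shown because this gene passed with the block and holds the element. It is chr6:32589849-32590098 on the minus strand, with the Y box in capitals.
HLA-DRB1: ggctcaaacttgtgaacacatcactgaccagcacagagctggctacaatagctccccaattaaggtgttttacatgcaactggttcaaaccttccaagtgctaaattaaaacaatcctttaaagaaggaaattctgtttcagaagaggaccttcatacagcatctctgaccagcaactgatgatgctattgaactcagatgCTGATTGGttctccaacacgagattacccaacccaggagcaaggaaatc

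**Figure D3:**
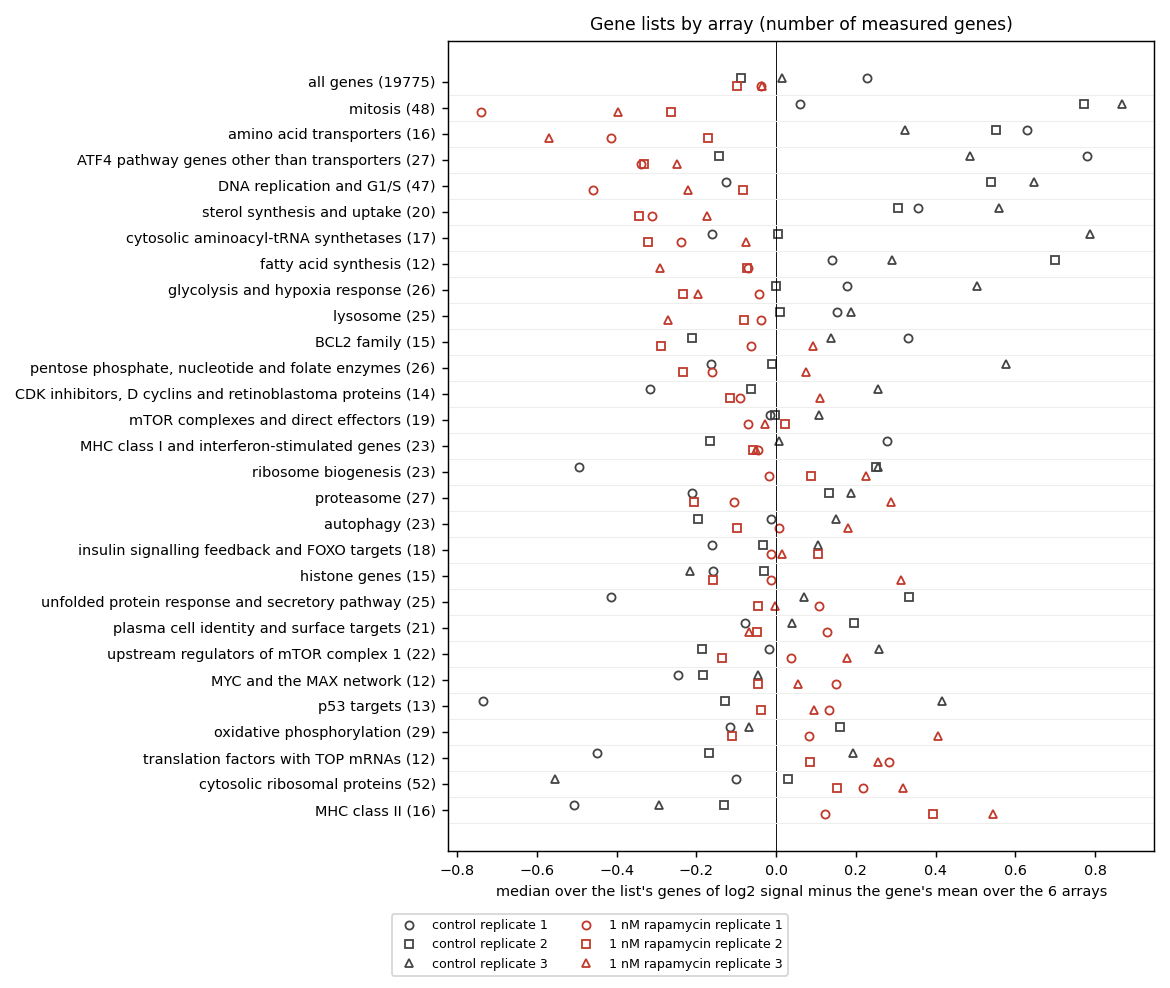
Median over each list's genes of log2 signal minus the gene's own mean over the 6 arrays (x axis), for 28 lists and all genes (y axis, number of genes in brackets), with control in grey, 1 nM rapamycin in red and the replicate number as the symbol. On mitosis, amino acid transporters, the ATF4 list, sterol synthesis, fatty acid synthesis, glycolysis and lysosome every 1 nM array lies under every control array. On MHC class II and cytosolic ribosomal proteins every 1 nM array lies above every control array. Control replicate 1 stands apart on several lists (-0.73 on p53 targets against -0.13 and 0.42).

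CD38, a surface enzyme that breaks down NAD and the target of antibodies used in myeloma, read 8.98, 9.05 and 8.45 on the control arrays and 7.64, 7.16 and 7.20 on the 1 nM arrays. Control replicate 3 was the lowest control array and still above every 1 nM array. CD38 fell by 1.49 ± 0.20 (2.82-fold, limma adjusted p = 0.0137, and 0.00237 with the block). Of 21 genes of plasma cell identity and surface targets it was the single call, against 0.0809% of all genes lower. TNFRSF13B, the receptor TACI for the survival factors BAFF and APRIL, passed with the block (-1.08 ± 0.28, adjusted p = 0.183, and 0.0499 with the block). SDC1 read 13.15, 13.02 and 13.10 against 12.52, 12.47 and 12.01 (-0.76 ± 0.33, adjusted p = 0.595). The list's median was 0.05 (-0.02 without control replicate 1), the factor IRF4 had a value of 0.05 and the BCMA gene TNFRSF17 0.26 (0.13 without control replicate 1). CD79B, a chain of the B cell receptor, differed by -1.07 ± 0.27 (adjusted p = 0.172, and 0.0488 with the block), although 1 of its 3 probe sets had a value of 0.06.

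The 4 rises include H2BC12, which encodes a histone H2B of the nucleosome core. H2BC12 read 6.60, 7.05 and 6.71 in control cells and 9.005, 8.38 and 9.68 at 1 nM. The 1 nM arrays spread over more than 1 log2 unit, all above the control arrays. H2BC12 rose by 2.23 ± 0.34 (4.70-fold, limma adjusted p = 0.0284). Of 15 histone genes it was the single call, against 0.0202% of all genes higher. The list's median was 0.04 (0.05 without control replicate 1). H2BC5 read 7.36, 6.88 and 7.06 against 8.27, 7.45 and 8.62 (1.01 ± 0.45, adjusted p = 0.61). H2B genes are close copies of each other, so their probe sets may share targets.

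DENND2C, which activates small GTPases of the RAB family, read 7.90, 9.18 and 9.23 in control cells and 10.81, 10.44 and 10.49 at 1 nM. Control replicate 1 was over 1 log2 unit under the other control arrays. DENND2C rose by 1.81 ± 0.31 (3.51-fold, limma adjusted p = 0.0439), and without control replicate 1 its change was 1.38 and the call was lost (adjusted p = 0.0665). SH3YL1, a phosphoinositide-binding protein, read 5.97, 5.93 and 6.28 against 7.35, 7.48 and 7.40. It rose by 1.35 ± 0.21 (limma adjusted p = 0.0284), but its other probe set had a value of -0.17. No list held DENND2C or SH3YL1.

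The remaining 5 falls were of genes that no list held. PIGU, a subunit of the transamidase that attaches GPI anchors, read 9.67, 9.54 and 9.12 against 8.32, 8.22 and 8.16 and fell by 1.21 ± 0.19 (limma adjusted p = 0.0284). TXNDC12, a thioredoxin-like protein of the endoplasmic reticulum, read 12.31, 12.20 and 11.89 against 11.25, 11.05 and 11.18 and fell by 0.98 ± 0.16 (adjusted p = 0.0284). ERMP1, a metallopeptidase of the same organelle, read 8.31, 8.25 and 8.39 against 7.53, 7.23 and 7.23 and fell by 0.99 ± 0.17 (adjusted p = 0.0424). None of these 3 genes had overlapping groups. TMEM109, a membrane protein, read 10.87, 10.72 and 10.40 against 9.63, 9.45 and 9.27 and fell by 1.21 ± 0.21 (adjusted p = 0.0441). ENPP1, a surface phosphodiesterase that hydrolyses extracellular ATP, read 6.37, 6.12 and 6.03 against 5.34, 5.30 and 5.08 and fell by 0.93 ± 0.15 (adjusted p = 0.0284). Of 25 genes of the unfolded protein response and secretory pathway 0 passed (1 higher and 4 lower at an unadjusted p under 0.05, against 2.95% and 5.1% of all genes). With the block the translocon subunit SEC61A1 did (-0.98 ± 0.22, adjusted p = 0.125 and 0.0401). The list's median was 0.05, and -0.18 without control replicate 1. The proteasome list had a median of 0.03, turning to -0.17 without control replicate 1, and 0 of 27 past the threshold. Among the 27 there were 1 higher and 2 lower at an unadjusted p under 0.05, against 2.95% and 5.1% of all genes.

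BCL2L11, the gene of the pro-death protein BIM, read 8.40, 9.03 and 9.07 in control cells and 9.69, 10.24 and 9.64 at 1 nM. The groups did not overlap, and control replicate 1 was the lowest. Its change was 1.03 ± 0.29 (limma adjusted p = 0.264, and 0.048 with the block), and 6 of its 7 probe sets lay higher. Of 15 BCL2 family genes 0 passed (2 higher and 0 lower at an unadjusted p under 0.05, against 2.95% and 5.1% of all genes). Their median was -0.23 (-0.05 without control replicate 1). The survival gene BCL2 read 8.78, 8.41 and 9.34 against 9.61, 9.35 and 9.60 (0.68 ± 0.27, adjusted p = 0.522), but the mean of its probe sets gave -0.03. Of 13 p53 targets, which include CDKN1A, 0 passed (0 higher and 2 lower at an unadjusted p under 0.05, against the same shares). Their median of 0.27 was -0.01 without control replicate 1. Of 29 oxidative phosphorylation genes, with a median of 0.30 (0.13 without control replicate 1), 0 passed. At an unadjusted p under 0.05 there were 6 higher and 3 lower, against 2.95% and 5.1% of all genes.

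The higher dose, 10 nM, is set beside these values for the same genes. The doses were compared with the same 3 control arrays, so their changes are not independent. At 10 nM 86 genes passed (0.435% of those tested), 13 higher (0.0657%) and 73 lower (0.369%). INHBE differed from control by -3.85 ± 0.51 at 10 nM, against -3.40 at 1 nM, SLC7A11 by -2.49 ± 0.38 against -2.47, H2BC12 by 2.24 ± 0.34 against 2.23, and MKI67 by -1.87 ± 0.20 against -1.51. In the test between the doses 0 of 19775 genes passed in limma, with 24 (0.121%) at an unadjusted p under 0.05, 16 higher (0.0809%) and 8 lower (0.0405%). With the replicate block 0 passed as well, with 55 at an unadjusted p under 0.05. Same-numbered 1 nM and 10 nM arrays deviated together from their group means (r = 0.31, 0.85 and 0.71 across genes). Without the block, the 95% interval of the difference, 10 nM minus 1 nM, ran from -0.73 to 0.75 for H2BC12, from -0.45 to 0.86 for SLC3A2 and from -0.40 to 0.40 for HLA-DPB1. DDIT4 differed most of the genes named here, by -1.72 (interval from -3.19 to -0.24, adjusted p = 1.00). Between same-numbered arrays 4 of the 20 genes lay lower at 10 nM in every pair (INHBE, MKI67, MYBL2 and NCAPH), 5 lay higher (CD38, DENND2C, NEU1, SLC3A2 and TXNDC12) and 11 were mixed. AURKA lay lower at 10 nM in every pair, by -0.66, -0.34 and -0.51 (unadjusted p = 0.0762 in limma, and 0.024 with the block, adjusted p = 1.00). Mitotic genes had a median change from control of -1.31 at 10 nM against -0.91 at 1 nM, and DNA replication genes -0.77 against -0.51. Other lists had the higher median at 10 nM, among them amino acid transporters (-0.68 against -0.76), the ATF4 list (-0.47 against -0.55), aminoacyl-tRNA synthetases (-0.34 against -0.46) and the lysosome (-0.12 against -0.26). SLC7A5 (-1.81 against -1.91), NEU1 (-1.20 against -1.42) and CD38 (-1.36 against -1.49) also had the higher value at 10 nM, so a smaller change from control.

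**Figure D4:**
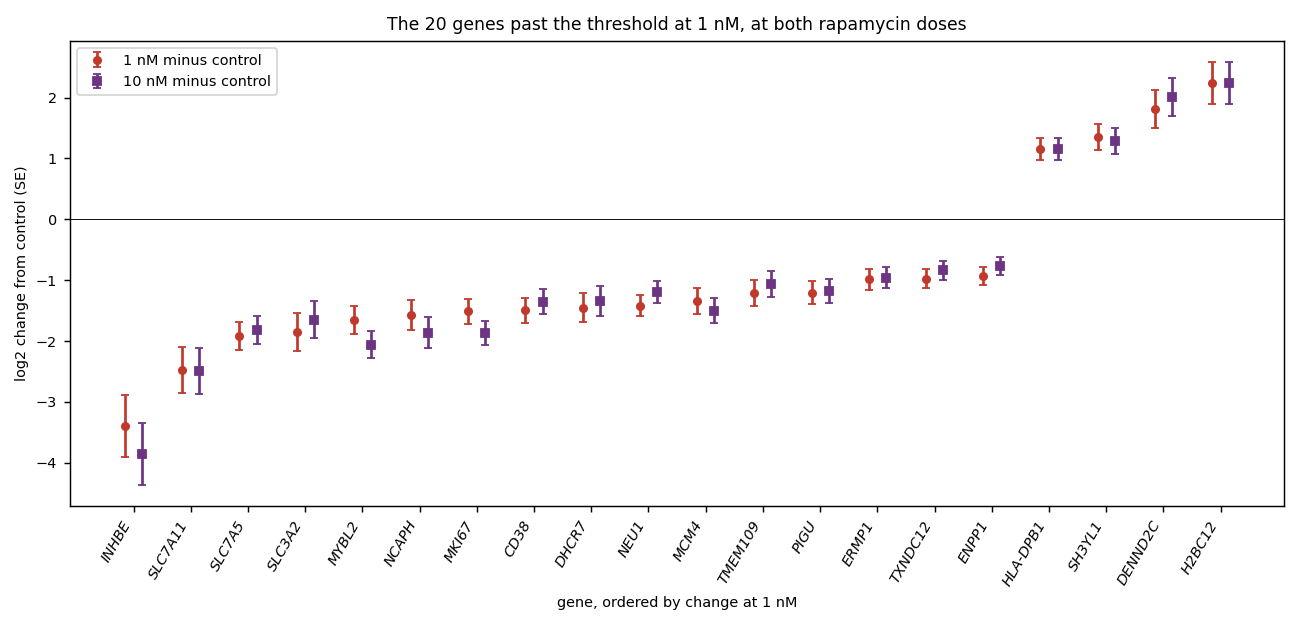
Log2 change from control (y axis, with the SE) of the 20 genes past the threshold at 1 nM (x axis, ordered by change), at 1 nM as red circles and at 10 nM as purple squares. The doses share the control arrays, and INHBE is the lowest at both, at -3.40 and -3.85.

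The same dose was also given with MS275, where the comparison is with MS275 alone and uses none of the 6 arrays above. Of its 3 arrays with rapamycin, replicate 1 is the other narrow array of the series (SD 2.15, median 5.35). There SLC7A5 differed by -0.99, SLC3A2 by -0.59, SLC7A11 by -1.13 and INHBE by -2.27. NEU1 (-1.17), CD38 (-1.37) and MYBL2 (-1.34) are set against -1.42, -1.49 and -1.65 without MS275, and MKI67 (-0.56) against -1.51. Without the narrow array SLC7A5 was at -1.08, SLC3A2 at -0.87, SLC7A11 at -1.24, INHBE at -2.57 and MKI67 at -0.69. The exception in direction among the 20 genes was H2BC12, at -0.15, which without the narrow array was 0.04, so its direction there rested on that array. The test of the difference gave -2.38 ± 0.49 for H2BC12 (1 nM change with MS275 less that without), with an adjusted p of 0.682. No gene passed this test in limma, with 916 (4.63%) at an unadjusted p under 0.05, 550 of them with the larger value with MS275 (2.78%) and 366 with the smaller (1.85%), and 1 passed without control replicate 2. By list, mitotic genes had a median of -0.83 with MS275 against -0.91 without, amino acid transporters -0.40 against -0.76, MHC class II genes 0.48 against 0.69 and ribosomal proteins -0.04 against 0.42. With all arrays kept, DNA replication genes (-0.92 against -0.51) and glycolysis genes (-0.65 against -0.38) had the lower median with MS275. The medians of oxidative phosphorylation (-0.43 against 0.30) and p53 targets (-0.28 against 0.27) had opposite signs with all arrays kept. Without the narrow array the values with MS275 were -0.61 for mitosis, -0.34 for transporters, 0.57 for MHC class II, -0.01 for ribosomal proteins, -0.78 for DNA replication, -0.48 for glycolysis, -0.33 for oxidative phosphorylation and 0.01 for p53 targets. Leaving out control replicate 1 gave values without MS275 of -1.24 for mitosis, -0.80 for transporters, 0.58 for MHC class II and 0.48 for ribosomal proteins. They were -0.77 for DNA replication, -0.44 for glycolysis, 0.13 for oxidative phosphorylation and -0.01 for p53 targets. With both narrow arrays left out, the settings thus lay close for DNA replication, glycolysis and p53 targets, and apart for mitosis.

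**Figure D5:**
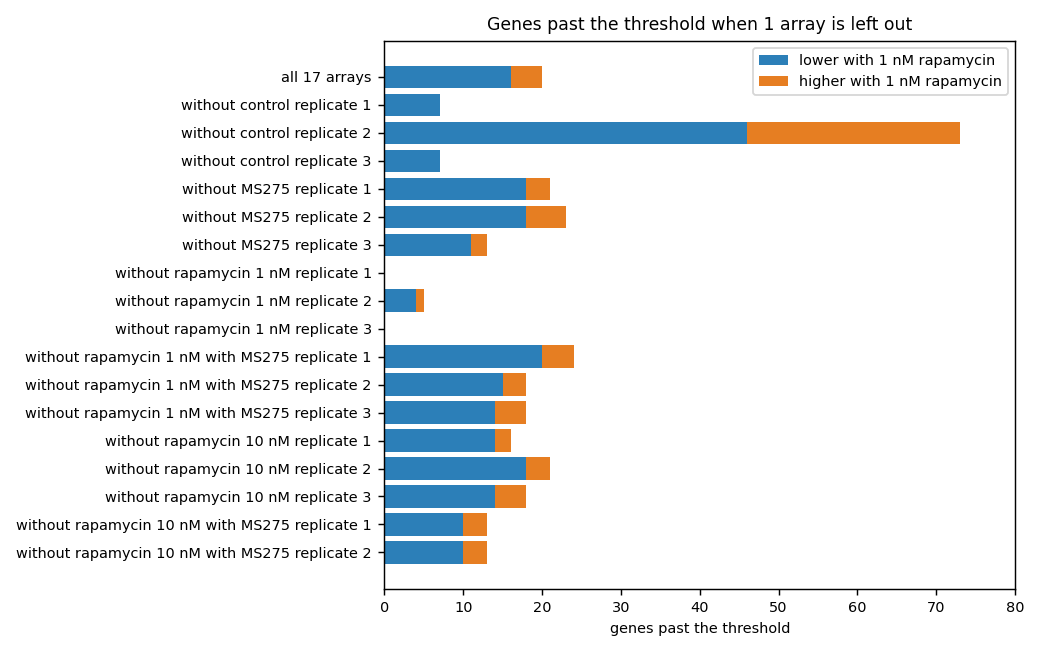
Number of genes past the threshold for 1 nM rapamycin against control (x axis) with all 17 arrays and with each array left out in turn (y axis), split into lower (blue) and higher (orange). The count is 20 with all arrays, 73 without control replicate 2 and 0 without 1 nM replicate 1 or 3.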

How the data were processed

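TRIzol extracts of 17 samples were amplified and labelled with biotin, per the labels' protocols. The authors deposited log2 signals per probe set, and the submitters' processing notes name affy and RMA. Their versions are not given in the sources. The table holds 54613 probe sets, of which 41091 have 1 gene symbol in GEO's platform annotation, 1801 several and 11721 none. A RefSeq gene table (GRCh38.p14), used for names, matched 41037 of the singly named probe sets by Entrez ID. Where several singly named probe sets share a symbol, that of the highest mean signal across the 17 arrays stands for the gene (19775 genes). Scanner files and detection calls were not used here, so signal over background is unknown. Precision is limited by how few arrays there are. The median 95% interval of a log2 change reached 0.54 to either side.

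Values were used as deposited in R 4.3.3 with limma 3.58.1 (lmFit on 6 group means over 17 arrays, eBayes with default settings), with Benjamini-Hochberg adjustment over all genes and a threshold of 0.05. The script was tested on simulated data. The comparisons are 1 nM rapamycin against control, 10 nM against 1 nM, and the 1 nM change with against without MS275. The labels number replicates 1 to 3 without saying what the numbers share. Deviations of same-numbered control and 1 nM arrays from their group means correlated at 0.35, 0.29 and 0.42 across genes. The numbers were therefore taken to pair the arrays, on the data and not on the labels. The block covers all 17 arrays, and this check did not cover those with MS275. Replicates 1 and 2 of 10 nM rapamycin with MS275 correlated best with replicates 2 and 3 of 1 nM rapamycin with MS275 (r = 0.994 and 0.993). The numbers may thus not pair those 2 arrays, and a block with other numbers for them was not run. The block on only the 6 arrays compared leaves them out, and 0 genes passed there. The main model has no term for the replicate numbers, and the model with the number as a block is given where it changes a call.

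Named genes are the 20 past the threshold, in each list the 4 genes of smallest p, the 10 genes outside the threshold with the smallest p and some genes of interest. Other genes named are list members at the ends of a list, or genes past the threshold with the block, chosen after their values were seen. The members and lists were chosen with earlier results of these data known. Motifs were searched in RefSeq promoter windows, which 17 of the 20 genes have. Alternatives were the mean of a gene's probe sets, every probe set, a filter on low signals, median centring, quantile normalization, only the arrays compared, a trended and robust eBayes, array weights, the block, leaving out both narrow arrays and leaving out each array. The block without the 2 narrow arrays was added after seeing the data.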

Additional observations from a re-analysis of the deposited data

Results flagged for a closer look

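Probe sets with several gene symbols or none take part in no gene value above. Among them a probe set annotated to HLA-DQA2 and HLA-DQA1, was higher by 1.83 with 1 nM rapamycin (mean log2 signal 12.47 against 10.64 in control cells, limma adjusted p = 0.0356 over all 54613 probe sets). NOLC1, a nucleolar phosphoprotein, had every 1 nM array below every control array (-0.28) and every array of 1 nM rapamycin with MS275 above every MS275 array (0.33). Its difference between the settings was 0.61 and did not pass the test of that difference (adjusted p = 0.682). Groups of 3 arrays are too small to test for a single array that lies apart, so none was tested.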

How the results depend on the processing

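The 20 genes became 30 with the mean of a gene's probe sets (14 shared), 21 with the filter on low signals (19), 18 with median centring (17), 40 with quantile normalization (18), 8 with a trended and robust eBayes (8), 2804 with array weights (20, where 1 nM replicate 1 had a weight of 11.3 and control replicate 1 of 0.11), 46 without the 2 narrow arrays (18), 112 with the replicate block (20) and 92 with the block and without the narrow arrays (18). With only the 6 arrays compared 0 passed in limma, with or without the block (1676 and 1064 at an unadjusted p under 0.05). Leaving out each array gave 0 to 73 genes. The 30 calls over all 54613 probe sets were 6 higher and 24 lower. Between the doses 0 genes passed under every alternative run. The difference with MS275 gave 0 under all alternatives but 1 (0 to 1 over left-out arrays). Gene changes that took the other sign, none past the threshold, were BCL2 (-0.0285) and SESN3 (-0.0051) with the mean of probe sets, ZMAT3 (-0.0043), CCNG2 (-0.22) and BOK (0.0015) with array weights, and RPS6KB1 with array weights (-0.22), without the narrow arrays (-0.25, and -0.15 with the block) and without control replicate 1 (-0.25, with up to 0.74 over left-out arrays). TFEB did so with the mean of probe sets (-0.25), quantile normalization (-0.0164), array weights (-0.23), without control replicate 2 (-0.19) and without 1 nM replicate 3 (-0.0042), with up to 0.29 over left-out arrays. The causes were not tested. None of the 20 passed in all 17 fits that each lack an array: SLC7A5, NEU1, MKI67 and MYBL2 passed in 15, DENND2C and TMEM109 in 3.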

Other observations

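Several genes outside the lists passed only with the replicate block. Among the higher ones, RASGRP3, an activator of RAS in B cells, read 8.49, 8.56 and 8.74 on the control arrays and 10.08, 10.68 and 9.87 on the 1 nM arrays (1.61 ± 0.29, limma adjusted p = 0.0527, and 0.0217 with the block). The groups did not overlap. EAF2, an elongation factor partner, read 6.75, 7.66 and 7.97 against 8.79, 8.66 and 9.39 (1.48 ± 0.39, 0.199 and 0.0216), with 1.13 without control replicate 1. The clock repressor NR1D2 read 4.19, 4.41 and 4.91 against 5.80, 6.57 and 6.41 (1.75 ± 0.50, 0.268 and 0.0401). YPEL2 read 3.85, 5.46 and 5.17 against 6.40, 6.94 and 7.004 (1.96 ± 0.51, 0.193 and 0.0269), with 1.47 without control replicate 1.

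Among the lower ones, VAV1, an exchange factor downstream of antigen receptors, read 9.44, 8.86 and 9.18 against 7.91, 8.02 and 7.91 (-1.21 ± 0.23, limma adjusted p = 0.0661, and 0.0269 with the block). The integrin chain ITGB7 read 12.82, 11.42 and 12.13 against 11.12, 10.55 and 10.44 (-1.42 ± 0.36, 0.179 and 0.0183), with -1.07 without control replicate 1. In cells given MS275 the 1 nM change of ITGB7 was 0.15, with the narrow array of that setting included. The test of the difference gave 1.57 ± 0.51 for ITGB7 and did not pass (limma adjusted p = 0.682). The cobalamin receptor CD320 read 12.17, 11.49 and 11.57 against 10.59, 10.38 and 10.66 (-1.20 ± 0.23, 0.0661 and 0.0260), and -1.49 with MS275. PIGS, like PIGU a subunit of the GPI transamidase, read 10.45, 10.46 and 10.45 against 9.71, 9.72 and 9.66 (-0.76 ± 0.14, 0.0683 and 0.0433). These genes were chosen after their values were seen.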
